A study of Mus musculus with 9 samples.

Results

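AMPA receptors are the glutamate-gated ion channels that carry most fast excitatory transmission in the hippocampus. This account covers 8 of the 57180 genes in the deposited table: the 4 genes of the pore-forming subunits, Gria1, Gria2, Gria3 and Gria4, and 4 genes of the transmembrane AMPA receptor regulatory proteins (TARPs), Cacng2, Cacng3, Cacng4 and Cacng8. They were chosen by symbol and not by a cut on a measured value, though with earlier results of these data known, and all 8 passed the filter on low values. The study measured RNA of whole hippocampi from C57BL6 mice aged 11 days. One group of 4 mice (3 males and 1 female) is labelled Slc38a3 cKO, and the design text describes a selective knockout of this gene in endothelial cells. The other group of 5 mice (1 male and 4 females) is labelled wt and is called WT here. Slc38a3 encodes the glutamine transporter SNAT3. The sources used here do not give the promoter or Cre line behind the knockout, the alleles that WT mice carried, or the litters. Litter could therefore not enter any test. The p-values of the main fit rest on each gene's spread among these 9 libraries, pooled with a trend over all genes tested.

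As background, the pore of an AMPA receptor is an assembly of GluA subunits, and channels that contain edited GluA2, the product of Gria2, pass little calcium. TARPs bind the assembled channel, bring it to the cell surface and synapse, and slow its closing. Cacng8 is the TARP most associated with hippocampal pyramidal cells, and Cacng2 encodes stargazin, the founding member of the family.

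The pore subunit genes share a membrane re-entrant loop that holds the codon edited by ADAR2 in Gria2, and its coding sequence is shown because it lets the similarity of the 4 genes be seen directly. Each window holds 60 bases of coding sequence from GENCODE M21, written 5′ to 3′ on the coding strand, and capitals mark the edited codon of Gria2 and the codon aligned with it in the other genes.
Gria1: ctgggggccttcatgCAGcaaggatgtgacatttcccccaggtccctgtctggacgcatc
Gria2: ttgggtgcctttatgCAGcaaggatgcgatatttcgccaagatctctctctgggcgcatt
Gria3: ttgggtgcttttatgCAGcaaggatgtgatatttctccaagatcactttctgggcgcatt
Gria4: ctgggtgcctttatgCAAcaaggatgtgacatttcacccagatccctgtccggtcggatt
The Gria2 and Gria3 windows share 55 of 60 bases, and Gria1 shares 48 of 60 with Gria2. The longest identical run between any pair of these coding sequences joins Gria2 and Gria3 and is 56 bases long, shown because a read that lies inside it cannot be given to either gene by sequence.
Gria2 and Gria3: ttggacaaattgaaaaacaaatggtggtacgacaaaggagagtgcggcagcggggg
Gria2 and Gria4 share a coding run of 55 bases, and over whole transcripts Gria3 and Gria4 share a longer run, of 59 bases. Among the 4 TARP genes the longest coding run is 23 bases. The gene totals analysed here hold neither the edited share of Gria2 nor the flip and flop splice forms of any subunit.

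Depth was similar across the libraries, and the targeted gene followed the labels. Libraries held 32096409 to 34034530 reads in cKO hippocampi and 30803135 to 33134405 reads in WT hippocampi. Values are the authors' normalized counts, in which each gene's reads are divided by a factor of the library. Slc38a3 had 308 to 405 normalized counts in cKO hippocampi and 1804 to 3514 in WT hippocampi, a fold of 8.04 between the WT and cKO means. WT replicates 2 and 5 had the lowest Slc38a3 values of the WT libraries, at 2033 and 1804. The genotype test was limma on log2(normalized count + 1) with sex in the model, adjusted by the Benjamini-Hochberg method over 17036 genes, and a gene passed at an adjusted p under 0.05.

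None of the 8 AMPA receptor genes passed the genotype test, where 0.346% of all genes tested did (59 genes), and 0.223% of all genes passed with a lower level in cKO (38 genes). By edgeR and by DESeq2 on the recovered reads the count was also 0 of 8. At an unadjusted p under 0.05 the limma fit held 1 of 8 members, Cacng8, against 11.3% of all genes, and at an unadjusted p under 0.01 it again held Cacng8, against 3.56% of all genes. The log2 difference between cKO and WT was below 0 for 5 members and above 0 for 3, against 51.2% of all genes below 0. Its median over the 8 members was -0.035, beside -0.0034 over all genes tested.

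Gria1 encodes GluA1, the subunit known for activity-dependent insertion at hippocampal synapses, and lies at chr11:56902213-57221070 (GRCm39, as for all positions here). It had 26940, 29748, 28817 and 31317 normalized counts in cKO hippocampi and 30096, 31080, 31456, 31016 and 31727 in WT hippocampi. The first 3 cKO libraries lay below every WT library, and cKO replicate 4 lay among them, so the groups overlapped. The log2 difference was -0.065 ± 0.049 (SE), with an adjusted p of 0.646 by limma and a 95% interval of the fold, cKO over WT, from 0.888 to 1.03.

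Gria2, at chr3:80588757-80710142, encodes the subunit that sets calcium permeability. Its values were 25755, 26918, 26678 and 27975 normalized counts in cKO hippocampi and 26712, 26955, 27426, 29110 and 29100 in WT hippocampi. WT replicates 4 and 5 stood above all other libraries, and the remaining libraries of both groups overlapped. Gria2 had the narrowest span of the 8 genes, with a highest library 1.13 times the lowest. The log2 difference was -0.031 ± 0.046 (SE; limma adjusted p = 0.836), and the fold interval ran from 0.914 to 1.05.

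Gria3, at chrX:40489731-40767478, is the X-linked member and encodes GluA3, a subunit that joins GluA2 in forebrain receptors. It had 5281, 4967, 5621 and 5754 normalized counts in cKO hippocampi and 5061, 5120, 5336, 5616 and 5482 in WT hippocampi. The lowest library and both of the highest were cKO, and the groups overlapped. Between the genotypes Gria3 differed by 0.0040 ± 0.057 on the log2 scale (SE; limma adjusted p = 0.984), with a fold interval from 0.921 to 1.09.

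Gria4, at chr9:4417896-4796234, encodes the subunit known from interneurons and from early development. It had 2688, 2290, 2573 and 2863 normalized counts in cKO hippocampi and 2286, 2269, 2424, 2855 and 2750 in WT hippocampi. Low values, from 2269 to 2290, occurred in cKO replicate 2 and in WT replicates 1 and 2, so the spread within each group was as wide as the span between them. Its within-group SD, 0.146 on the log2 scale, was the largest of the 8 members. For Gria4 the log2 difference was 0.034 ± 0.092 (SE; limma adjusted p = 0.918), and the fold interval of 0.892 to 1.17 was the widest among the pore subunits.

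**Figure D1:**
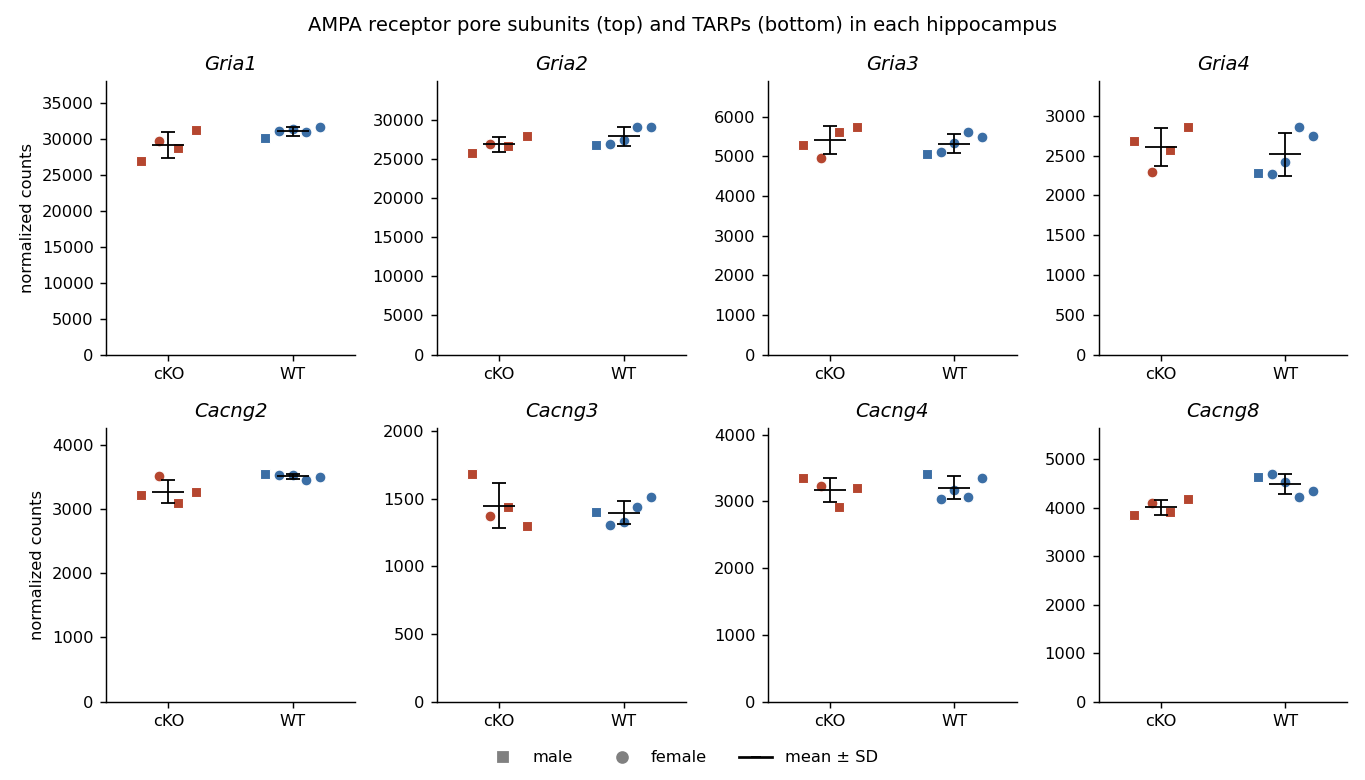
Normalized counts (vertical axes, from 0) of the 4 pore subunit genes and the 4 TARP genes in each cKO and WT hippocampus, with males as squares, females as circles and the mean ± SD as lines. The cKO and WT points overlap for every gene except Cacng8, whose highest cKO library, at 4190, lies below its lowest WT library, at 4227.

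Among the TARPs, Cacng8 had the largest genotype difference of the 8 genes. Cacng8, at chr7:3439199-3464164, had 3848, 4094, 3921 and 4190 normalized counts in cKO hippocampi and 4636, 4705, 4536, 4227 and 4354 in WT hippocampi. All 4 cKO libraries lay below all 5 WT libraries, which held for 3.72% of all genes tested. No other member's groups were clear of each other, against 6.29% of all genes in either direction. The gap was narrow, with 4190 in cKO replicate 4 against 4227 in WT replicate 4. The group means were 4014 ± 157 in cKO hippocampi (SD, n = 4) and 4492 ± 198 in WT hippocampi (SD, n = 5). The log2 difference was -0.17 ± 0.050 (SE), a fold interval of 0.826 to 0.959, and its unadjusted p of 0.00474 stood at rank 366 of the 17036 genes. The limma adjusted p was 0.221, so Cacng8 did not pass, and over the 21 other settings tried it ran from 0.0719 without a sex term to 0.667 in males alone. In those settings the log2 difference ran from -0.22 to -0.12, and without WT replicates 2 and 5, the libraries low in Slc38a3, it was -0.16 (limma adjusted p = 0.544).

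Cacng2, at chr15:77875948-78004228, had 3208, 3512, 3089 and 3258 normalized counts in cKO hippocampi and 3546, 3523, 3530, 3441 and 3499 in WT hippocampi. The 3 male cKO libraries were below every WT library, and the female cKO library lay within the WT range. WT libraries were close together, at 3508 ± 41.0 (SD, n = 5), beside 3267 ± 178 in cKO hippocampi (SD, n = 4). The log2 difference was -0.072 ± 0.044 (SE; limma adjusted p = 0.566), with a fold interval from 0.890 to 1.02. Without the sex term the limma unadjusted p was 0.0168 and the adjusted p 0.211.

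Cacng3, at chr7:122269715-122368616, encodes a TARP of cortical and hippocampal principal cells and was the member with the fewest reads, 1261 to 1695 per library. It had 1685, 1372, 1441 and 1301 normalized counts in cKO hippocampi and 1399, 1310, 1325, 1440 and 1513 in WT hippocampi. Both the highest and the lowest library were cKO, replicates 1 and 4. For Cacng3 the log2 difference was 0.021 ± 0.082 (SE; limma adjusted p = 0.946), and the fold interval ran from 0.897 to 1.15.

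Cacng4, at chr11:107623183-107685383, is the TARP known for high expression in the developing brain and in glial precursors. It had 3347, 3229, 2919 and 3205 normalized counts in cKO hippocampi and 3416, 3035, 3168, 3062 and 3353 in WT hippocampi. One cKO library, replicate 3, was below the WT range and the other 3 lay inside it. Between the genotypes Cacng4 differed by -0.038 ± 0.058 on the log2 scale (SE; limma adjusted p = 0.838), with a fold interval from 0.893 to 1.06.

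**Figure D2:**
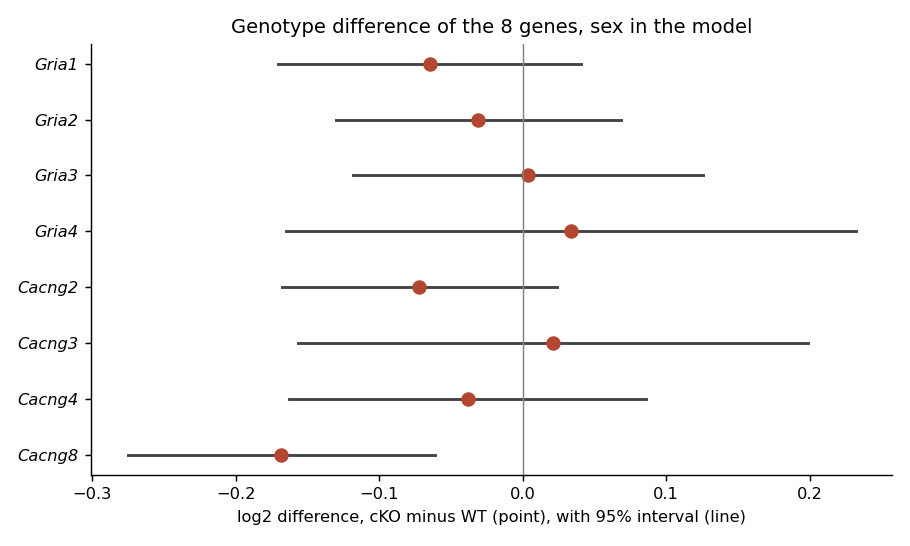
Log2 difference between cKO and WT for each of the 8 genes (points) with its 95% interval (lines), from the limma fit with sex in the model. The Cacng8 interval, from -0.28 to -0.061, is the only one of the 8 that does not reach 0; no gene passed after adjustment over all genes.

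The spread between mice was small next to these levels. The within-group SD of the 8 genes had a median of 0.071 on the log2 scale, against 0.107 over all genes tested. That reference holds genes down to a mean of 10 normalized counts and was not matched for level. Among the 8 genes the SD was smallest for Cacng2, at 0.052. Reads per gene and library ran from 1261 to 33212. Counting error alone, taken for each gene at its library of fewest reads, was 0.608% to 2.82% of the value across the 8 genes. For Cacng2 in WT hippocampi the spread between libraries, a CV of 1.17%, was no larger than its counting error of 1.77%. That error was taken at cKO replicate 3, with 3193 reads, and the fewest Cacng2 reads in a WT library were 3254. Summed by family, the 4 pore subunit genes had 60664 to 67908 normalized counts in cKO hippocampi and 64154 to 69059 in WT hippocampi. The 4 TARP genes together had 11370 to 12206 in cKO hippocampi and 12170 to 12997 in WT hippocampi. Both pairs of ranges overlapped, the TARP ranges only between cKO replicate 2 and WT replicate 4.

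Subunit proportions were compared as ratios of normalized counts, which are not corrected for length and so serve only to compare libraries. The ratio of Gria1 to Gria2 was 1.09 ± 0.032 in cKO hippocampi and 1.12 ± 0.038 in WT hippocampi (SD). Gria1 made up 45.6% ± 0.946 of the pore subunit total in cKO hippocampi and 46.6% ± 0.951 in WT hippocampi (SD). The ratio of Gria3 to Gria2 ran from 0.185 to 0.211 in cKO hippocampi and from 0.188 to 0.195 in WT hippocampi, with the female cKO library lowest and the 3 male cKO libraries highest. Cacng8 relative to Gria1 was 0.134 to 0.143 in cKO hippocampi and 0.136 to 0.154 in WT hippocampi, and these ranges overlapped.

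Levels of the 8 genes can be set beside each other only per length. On normalized counts per kilobase of all annotated exons (GENCODE M21), Gria1 was highest, at 4833 ± 303 in cKO hippocampi and 5142 ± 102 in WT hippocampi (SD). Cacng8 (1641 to 2006 over the 9 libraries) and Gria2 (1656 to 1872) followed and overlapped. Cacng4 came next with 817 to 955, clear of its neighbours on both sides. Cacng2 (561 to 644), Gria3 (504 to 584) and Cacng3 (469 to 607) overlapped in turn, and Gria4 was lowest with 360 to 454. Per kilobase of 1 coding transcript a gene, Gria1 and Gria4 kept the first and last places. Gria2, at 2483 to 2807, then stood just above Cacng8, at 2029 to 2480, and Gria3 moved up to the fourth place. The annotated Cacng8 model starts without an ATG and may be incomplete, so its per-length level is uncertain.

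Sex was split unevenly between the genotypes, so it was tested in the same fit. None of the 8 genes differed between females and males at an adjusted p under 0.05 by limma, where 0.0528% of all genes did, and none did by edgeR or DESeq2. At an unadjusted p under 0.05 the count was also 0 of 8, against 6.73% of all genes. The female minus male log2 difference was largest for Cacng2, at 0.058 ± 0.044 (SE; limma adjusted p = 0.808). X-linked Gria3 had -0.031 ± 0.057 (SE; limma adjusted p = 0.935).

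Whether the genotype difference itself differed between the sexes rests on 1 cKO female and 1 WT male. No member passed the limma interaction test, where 0.00587% of all genes did (1 gene). Without the filter on low values the interaction test called 873 genes higher and 46 lower of 32240, and none of the 8 members. With the filter, 2 of 8 members had an unadjusted p under 0.05, against 7.9% of all genes. Those 2 were Gria3 and Gria4. For Gria4 the males had 2573 to 2863 normalized counts in cKO hippocampi and 2286 in the WT hippocampus. In females Gria4 had 2290 in the cKO hippocampus and 2269 to 2855 in WT hippocampi. The Gria4 interaction, the female minus the male log2 difference, was -0.41 ± 0.15 (SE; limma adjusted p = 0.595). For Gria3 the males had 5281 to 5754 in cKO hippocampi and 5061 in the WT hippocampus. In females Gria3 had 4967 in the cKO hippocampus and 5120 to 5616 in WT hippocampi. The Gria3 interaction was -0.25 ± 0.091 (SE; limma adjusted p = 0.595). For Cacng8 the males had 3848 to 4190 in cKO hippocampi and 4636 in the WT hippocampus. In females Cacng8 had 4094 in the cKO hippocampus and 4227 to 4705 in WT hippocampi. With 1 animal in an arm of each sex, these values within a sex are a description.

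**Figure D3:**
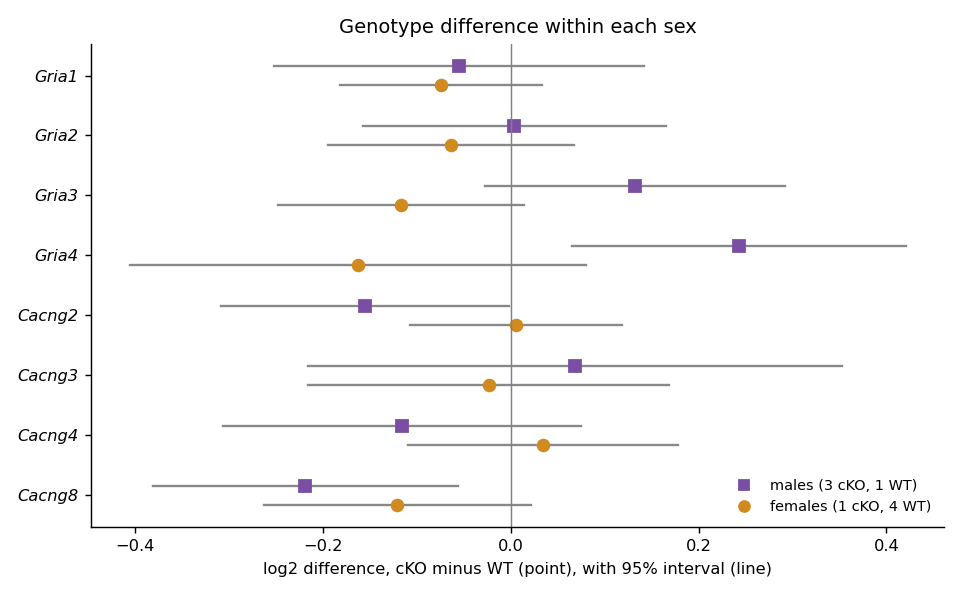
Log2 difference between cKO and WT within males (squares, 3 cKO and 1 WT) and within females (circles, 1 cKO and 4 WT), with 95% intervals as lines. Points of 6 genes lie on opposite sides of 0 in the 2 sexes, and those of Cacng8 and Gria1 lie below 0 in both. With 1 animal in an arm, a gene's own spread comes from the other arm alone. To set each interval, the limma fit pooled that spread with a trend over all genes.

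By a fixed rule, the gene whose library profile lay nearest to a member was found among 12713 other genes with a mean of at least 100 normalized counts. The measure was the root mean square difference of log2 values, centred per gene, over the 9 libraries. Gria1 lay nearest to Itgb1 (0.021), Gria3 to Senp5 (0.022) and Cacng8 to Dck (0.025). Gria4 lay nearest to Zfc3h1 (0.032), Cacng4 to Map4k2 (0.035) and Cacng3 to Adgrg2 (0.043). Among the members themselves, Gria1 and Gria2 were the closest pair at 0.045, and Gria4 and Cacng8 the farthest at 0.20. Cacng2 and Cacng8, at 0.058, were the closest pair of TARPs.

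Other proteins that act on AMPA receptors were described as lists, each beside the all-gene median of -0.0034 and the 51.2% of all genes below 0. Of 12 other auxiliary subunit genes, which bind the channel beside or in place of the TARPs, none passed, 5 lay below 0 and 7 above, and the median log2 difference was 0.049. The smallest p of that list belonged to Shisa6, which keeps receptors at the synapse. Shisa6 had 9856 ± 698 normalized counts in cKO hippocampi and 10986 ± 363 in WT hippocampi (SD; limma adjusted p = 0.256). Cacng5, a TARP of the second type, had 977 ± 85.8 in cKO hippocampi and 919 ± 83.4 in WT hippocampi (SD; limma adjusted p = 0.494).

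Of 6 genes for receptor assembly in the endoplasmic reticulum, none passed, 3 lay below 0 and 3 above, and the median was -0.053. Abhd6, a lipase known to hold back receptor delivery, had 1323 ± 59.1 normalized counts in cKO hippocampi and 1512 ± 33.5 in WT hippocampi (SD; limma adjusted p = 0.243). Its cKO libraries all lay below its WT libraries, which held for 3.72% of all genes tested. Sacm1l, a phosphoinositide phosphatase found with AMPA receptors, had an adjusted p of 0.436 by limma.

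Of 20 trafficking and anchoring genes none passed, 17 lay below 0 and the median was -0.085. Their summed level was 183623 to 188977 normalized counts in cKO hippocampi and 192091 to 197487 in WT hippocampi, ranges that did not overlap. The sum over all genes in the table did not overlap either, at 31915313 to 32349505 normalized counts in cKO hippocampi and 32404543 to 33123134 in WT hippocampi. Arc, the immediate early gene that drives receptor removal from synapses, had 883, 1241, 711 and 1184 normalized counts in cKO hippocampi and 1447, 1421, 1268, 1391 and 1538 in WT hippocampi. All Arc values in cKO were below those in WT, against 3.72% of all genes tested, and its log2 difference was -0.42 ± 0.15 (SE; limma adjusted p = 0.308). Rab11a, a GTPase of recycling endosomes, had -0.13 ± 0.056 (SE; limma adjusted p = 0.408).

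Of 10 kinase, phosphatase and editing genes none passed, all 10 lay below 0 and the median was -0.060. Adarb1 encodes ADAR2, the enzyme that edits the capital codon of Gria2 shown above. It had 4180 ± 88.7 normalized counts in cKO hippocampi and 4401 ± 185 in WT hippocampi (SD; limma adjusted p = 0.451).

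The 2 other ionotropic glutamate receptor families were described in the same way. Of 7 NMDA receptor subunit genes, 6 were tested (Grin3b had too low a mean), and 1 fell. Grin2c, an NMDA subunit known from cerebellar granule cells and astrocytes, had 483 ± 44.9 normalized counts in cKO hippocampi and 891 ± 76.6 in WT hippocampi (SD; limma adjusted p = 0.00104). It missed the threshold without cKO replicate 2, the female (limma adjusted p = 0.0516), and in males alone (limma adjusted p = 0.192). Of the 6 tested, 5 lay below 0, and the NMDA median was -0.21. Of 7 kainate receptor and Neto genes none passed, 4 lay below 0 and 3 above, and the median was -0.050. Grik5 had a log2 difference of 0.13 (limma adjusted p = 0.423) and Neto2 of -0.12 (limma adjusted p = 0.536).

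**Figure D4:**
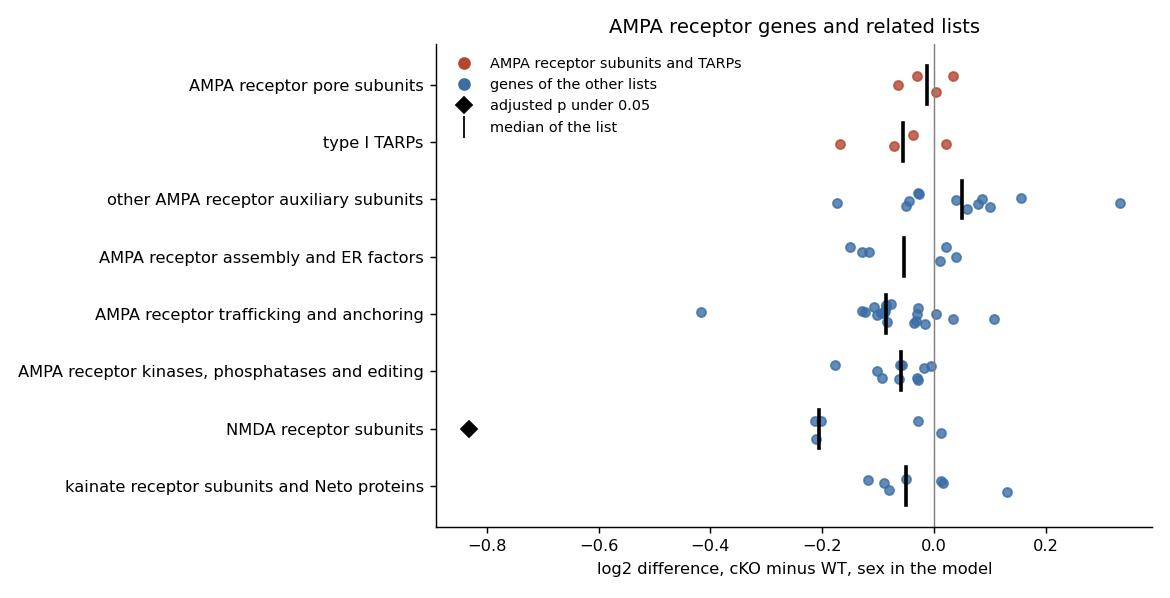
Log2 difference between cKO and WT for each tested gene of the AMPA receptor lists and of the NMDA and kainate receptor lists (points), with the median of each list as a vertical line. Grin2c is the single gene shown that passed (diamond), and the 8 AMPA receptor genes (top 2 rows) lie between -0.17 and 0.034.

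In whole tissue, fewer cells of a type and less RNA per cell cannot be told apart, so the markers of the cells that could carry these transcripts are given beside them. All marker genes were detected in all 9 libraries. The 10 pyramidal cell markers summed to 79102 to 85497 normalized counts in cKO hippocampi and 83827 to 89609 in WT hippocampi, and none of the 10 passed. Their median log2 difference was -0.061, with 7 below 0 and 3 above, against 51.2% of all genes below 0. None of the 8 dentate granule cell markers, the 12 interneuron markers or the 8 immature neuron markers passed, with medians of 0.057, 0.00012 and -0.0088. The 10 oligodendrocyte precursor markers, for cells that also express Gria genes and Cacng4, all lay below 0, against 51.2% of all genes, with a median of -0.096, and none passed. Their sum was 32020 to 34178 normalized counts in cKO hippocampi and 33758 to 36119 in WT hippocampi.

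Of the 10 astrocyte markers, Kcnj10 and Aqp4 fell and Gfap and S100b rose, and the list's sum was 156996 to 166394 normalized counts in cKO hippocampi and 157663 to 173825 in WT hippocampi. With 1 library left out, Kcnj10 passed in all 9 fits, and Aqp4 in 8 of 9, missing without cKO replicate 2 (limma adjusted p = 0.0679). S100b passed in 7 of 9, missing without cKO replicate 2 or WT replicate 1 (limma adjusted p up to 0.204). Gfap passed in 1 of 9, without cKO replicate 4, with an adjusted p up to 0.467 by limma in the others. Gfap also missed the threshold with TMM scaling, Gfap and S100b without the sex term, and Gfap, S100b and Aqp4 in each sex alone, where Kcnj10 missed it in males. Microglial markers summed to 8623 to 9653 in cKO hippocampi and 9794 to 10409 in WT hippocampi, with none of 8 passing. Endothelial markers summed to 7175 to 7933 in cKO hippocampi and 8036 to 8949 in WT hippocampi, and 1 of 8, Flt1, fell. The Flt1 call held in 1 of the 9 fits with a library left out, without cKO replicate 3, with an adjusted p up to 0.502 by limma in the others, and it was lost in each sex alone. The sums of these 2 lists separated the groups as Cacng8 did and as the sum over all genes did, and their part in the Cacng8 difference was not tested. The 8 myelin markers all lay above 0, with a median of 0.30. Of the 8 meningeal fibroblast markers 7 lay above 0 and 1 below, with a median of 0.39. None passed in either list.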

How the data were processed

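Total RNA of 9 hippocampi (4 cKO, 5 WT) was made into directional libraries, per the labels' protocols, which also describe the RNA as of very high quality. The submitters' processing notes name STAR 2.7.10b, DESeq2 1.41.8, cutadapt 4.4, FastQC 0.12.1 and the build GRCm39. The sources used here do not give the roles of these tools, the counting program, its strand setting, the annotation or the read length. The authors deposited a signal per gene that is a count divided by a library factor: a step of 0.943 to 1.08 per library turned 100.0% of values above 0 into whole reads, to a tolerance of 0.1 read.

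The test was limma 3.58.1 (R 4.3.3) with an empirical Bayes trend on log2(value + 1), genotype and sex as terms, genes with a mean of at least 10, and Benjamini-Hochberg adjustment over 17036 genes. Fold changes on this scale understate changes of low genes. The interaction of genotype and sex was fitted separately. Intervals are at 95%. Alternatives were pseudocounts, filters, TMM scaling, a robust fit, leaving out the sex term, a single sex, leaving out each library, and 2 count tests on the recovered reads. Of these, edgeR 4.0.16 called 57 genes and DESeq2 1.42.0 called 200.

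The 8 members and the 16 other lists (6 pathway, 10 marker) were chosen with earlier results of these data known. Named are all members, Slc38a3, each list's passing genes or otherwise its 2 of smallest p, and each member's nearest gene, except for items not reported here. Markers were given by their counts and sums. For the marker lists only genes that passed are named.

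Groups and sex came from the labels. Replicates were numbered in accession order and pair no samples. Gene symbols, identifiers and positions are those of the deposited table. Read as 0-based, its starts gave the annotated span for 95.2% of the 51884 genes that could be compared, all 8 members among them, so 1 was added to print them 1-based. Sequences and exon lengths came from GENCODE M21, which is on GRCm38, and none of its coordinates are printed.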

Additional observations from a re-analysis of the deposited data

Results flagged for a closer look

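Gria3 stood out because the genotypes separated in opposite directions in the 2 sexes. In males the 3 cKO hippocampi had 5281 to 5754 normalized counts and the WT hippocampus 5061. In females the cKO hippocampus had 4967 and the 4 WT hippocampi 5120 to 5616. The interaction was -0.249 on the log2 scale (SE 0.091; limma unadjusted p = 0.0178, adjusted p = 0.595), so it did not pass after adjustment over all genes. The same opposite separation occurred in 11.5% of all genes tested, and it rests on 1 WT male and 1 cKO female. No library of any member stood far enough from its group to be listed here.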

How the results depend on the processing

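The count of AMPA receptor genes passing the genotype test was 0 of 8 in all 21 other settings, and the members' median log2 difference stayed below 0. Gria1 and Cacng8 kept their direction in all 21. In males alone Gria2 reached 0.0041. In females alone Gria3 was -0.12, Gria4 -0.16, Cacng2 0.0056, Cacng3 -0.023 and Cacng4 0.035. Leaving out 1 library each, which without cKO replicate 2 or WT replicate 1 leaves the genotype difference to 1 sex, gave -0.064 to 0.0041 for Gria2, -0.12 to 0.13 for Gria3, -0.16 to 0.24 for Gria4, -0.16 to 0.0056 for Cacng2, -0.027 to 0.069 for Cacng3 and -0.12 to 0.035 for Cacng4. For the sex difference these ranges were -0.16 to 0.090 for Gria3, -0.24 to 0.17 for Gria4, -0.020 to 0.14 for Cacng2, -0.12 to 0.035 for Cacng4 and -0.059 to 0.039 for Cacng8, and without a genotype term Cacng8 had 0.081. The cause of these changes of sign was not tested. The count over all genes, 59, became 200 with DESeq2, 216 without a sex term, 3 in males, 11 in females, 15 without WT replicates 2 and 5 (chosen after seeing the data), and 10 to 65 with 1 library left out, lowest without cKO replicate 2. No paired analysis was possible because the labels give no replicate numbers that the groups share. Sex and genotype overlap in part, with 1 WT male and 1 cKO female, and this limits every within-sex value.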

Other observations

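Genes within 100000 bases of the members were compared after their values were seen, and no explanation was tested. On chromosome 7 the gene Myadm ends 90240 bases before the start of Cacng8. Myadm had 3872 ± 275 normalized counts in cKO hippocampi and 4576 ± 238 in WT hippocampi (SD), a log2 difference of -0.20 ± 0.058 (SE; limma adjusted p = 0.215), beside the -0.17 of Cacng8. Between Myadm and Cacng8 lies the TARP relative Cacng7, which ends 22461 bases before Cacng8. It had 3410 ± 80.6 in cKO hippocampi and 3200 ± 105 in WT hippocampi (SD), with a log2 difference of 0.060 (limma adjusted p = 0.610). All Cacng7 values in cKO, 3352 to 3527, lay above those in WT, 3081 to 3351. Such a separation in either direction occurred in 6.29% of all genes tested. Neither Myadm nor Cacng7 passed, and an unadjusted p under 0.01, which Cacng8 and Myadm both had, occurred in 3.56% of all genes. Prkcb, 36089 bases from Cacng3, had a log2 difference of -0.15 ± 0.053 (SE; limma adjusted p = 0.322), beside 0.021 for Cacng3.

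Long noncoding RNA genes overlap 3 members: A730060N03Rik lies over Cacng2, with a mean of 62.9 normalized counts, Gm11650 over Cacng4, with 40.9, and Gm44151 over Cacng8, with 0.34. These overlaps are of whole gene spans, introns included, and whether any exons are shared was not examined. The sources used here do not give the strand setting of the counting. How reads in any shared exon were assigned is therefore not known.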
